A study of Mus musculus with 6 samples.

Results

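The genes described here are *Pdk4*, *Cpt1a*, *Ehhadh*, *Acot1*, *Vnn1*, *Fgf21*, *Angptl4* and *Pck1*, 8 genes known for their rise in the fasted liver, most of them as targets of the nuclear receptor PPARα. They were chosen by name, and they are 8 of the 20284 genes with a symbol on the array and have 9 of its 55681 probes other than controls. All 6 groups were immature female CD-1 mice, an outbred strain, with an age of 24 days given for all of them. The treated mice were given BHPF (fluorene-9-bisphenol, a bisphenol built on a fluorene) in peanut oil by gavage for 3 days at 50 mg kg-1 bw d-1, and the control mice received peanut oil alone. Livers, ovaries and uteri were taken from both treatments. The RNA of 3 mice was pooled for each group and hybridized to 1 one-colour Agilent array, on which a single dye reports the amount of RNA bound by each probe. The spread between pools was thus not measured, no test between treatments was made, since a tissue has 1 array for each, and precision is limited by having so few arrays. The methods state that the mice could feed freely and name no fast, but they give no food intake for either treatment. Peanut oil, itself a fat, was given to control and BHPF mice alike.

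PPARα is a receptor that fatty acids activate. With its partner RXRα it binds direct repeats of a short DNA sequence and turns on genes for the uptake and oxidation of fatty acids. In fasting, fatty acids released from adipose tissue reach the liver, where they are oxidized in mitochondria and peroxisomes and turned into ketone bodies, while glucagon, acting through cyclic AMP, and glucocorticoids turn on the synthesis of glucose. Insulin acts against both after a meal.

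The level of a probe is the log2 of its background-subtracted intensity minus the 75th percentile of that array, so that 0 is the 75th percentile of the array, and the log2 ratio is the level with BHPF minus that of the control in the same tissue. The 75th percentile was an intensity of 3443 with peanut oil and 3292 with BHPF in the liver, 7499.7 and 6389 in the ovary, and 5335 and 4530.2 in the uterus. A probe counted as measured in a tissue where the scanner software called it well above background on at least 1 of its 2 arrays, a call given to 63.9% (control) and 61.3% (BHPF) of the probes in the liver, 74.5% and 69.3% in the ovary, and 68.9% and 64.7% in the uterus. The only error that could be measured is the SD between spots of the same probe, which gives a log2 ratio an SD of 0.16 in the liver, 0.15 in the ovary and 0.16 in the uterus. It leaves out the variation between animals and pools. Differences of at least 2-fold, and smaller ones of over 2 of these SDs, a log2 ratio of 0.33, 0.31 and 0.32 in the liver, ovary and uterus, were counted, and the counts of the 8 genes were set beside those of all named genes. The control arrays held the first positions on the slide and the BHPF arrays the next, so slide position went together with treatment.

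The tissue labels were compared with markers of each tissue. All 14 hepatocyte markers were well above background on the liver arrays, all 9 ovary markers on the ovary arrays and all 8 uterus markers on the uterus arrays. One assignment was at odds. In the table of log2 values that the authors deposited beside the scanner files, the column headed control uterus matched the scanner file labelled BHPF uterus within 0.001 for 100% of 38802 probes, and the column headed BHPF uterus matched the file labelled control uterus. Here the labels of the scanner files were followed, and each uterus ratio below has the opposite sign if the headings of that table are right.

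In the liver, none of the 8 genes differed by 2-fold in either direction between BHPF and peanut oil, while 3.2% of the 15530 named genes measured there were higher and 1.54% lower by 2-fold or more. *Fgf21* was the 1 member higher by over 2 SD between spots, a difference shown by 14.9% of all named genes, and no member was lower by as much, against 11.9% of all named genes. The median log2 ratio of the 8 genes was 0.13, beside 0.00 for all named genes. *Pck1*, *Angptl4* and *Ehhadh*, each with a bright probe there, had log2 ratios between −0.02 and 0.20.

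**Figure D1:**
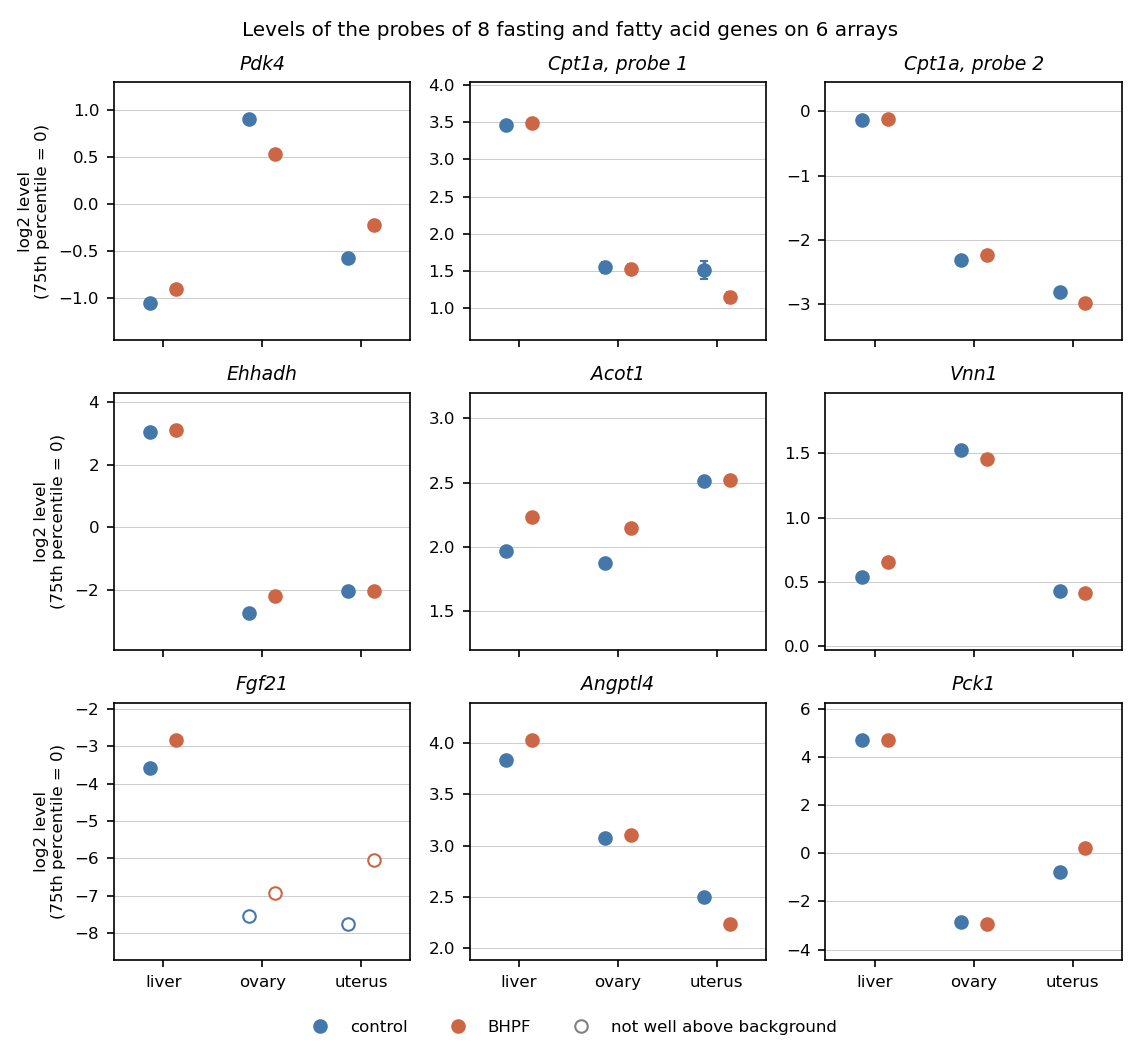
Log2 level of each probe of the 8 genes (vertical axis, 75th percentile of the array = 0) on the control and BHPF arrays of liver, ovary and uterus (horizontal axis). Each point is 1 array, bars on the *Cpt1a* probe with 10 spots are the SD between spots, and open points were not well above background. *Fgf21* in the liver (−3.59 and −2.83) and *Pck1* in the uterus (−0.77 and 0.21) show the widest gaps between control and BHPF among the measured pairs.

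*Pdk4* and *Cpt1a* act at the mitochondrion. *Pdk4* encodes a kinase that switches off pyruvate dehydrogenase and so spares glucose when fat is burned. Its probe, A_51_P350453, had an intensity of 1657 on the control and 1752 on the BHPF liver array, levels of −1.06 and −0.91, and the log2 ratio of 0.15 was smaller than the SD between spots. *Cpt1a* encodes the liver form of carnitine palmitoyltransferase 1, the enzyme that commits long-chain fatty acids to entry into mitochondria. Its probe A_51_P427674 lies on 10 spots of each array and gives the most precise values of the 8 genes. It had a level of 3.47 (SD between spots 0.05, 10 spots) on the control liver array and 3.49 (SD 0.05, 10 spots) on the BHPF liver array, so the ratio was 0.02 with a standard error of 0.02 from the spots. The other *Cpt1a* probe, A_55_P2057405, was much dimmer, with levels of −0.13 on both liver arrays, and its ratio was 0.00.

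*Ehhadh* and *Acot1* belong to the handling of fatty acids outside the mitochondrion. *Ehhadh* encodes the bifunctional enzyme of peroxisomal β-oxidation, a classical target of PPARα in rodents. It had an intensity of 28640 on the control and 28773 on the BHPF liver array, levels of 3.06 and 3.13 and a log2 ratio of 0.07. *Acot1* encodes a cytosolic thioesterase that splits acyl-CoA into free fatty acid and coenzyme A. Its levels of 1.97 and 2.23 gave a ratio of 0.27, which is 1.62 SD between spots. A difference at least as far above 0 was seen in 18.5% of all named genes.

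*Vnn1* encodes a pantetheinase, an enzyme at the cell surface that releases pantothenate and cysteamine. Its level was 0.54 on the control and 0.66 on the BHPF liver array, with a log2 ratio of 0.12 that lies within the spread between spots. *Angptl4* encodes a secreted inhibitor of lipoprotein lipase that limits the uptake of fat from lipoproteins. It was bright on both liver arrays, with levels of 3.83 and 4.03 and a ratio of 0.20. *Pck1* encodes the cytosolic phosphoenolpyruvate carboxykinase, a key enzyme of gluconeogenesis that glucagon and fasting raise. Its probe was the brightest of the 9 in the liver, with intensities of 90569 and 85160, levels of 4.72 and 4.69 and a ratio of −0.02.

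*Fgf21* encodes a hormone that the liver secretes in fasting and under many stresses and that acts through FGF receptors with the co-receptor β-Klotho. Its probe, A_52_P235347, was dim, with an intensity of 287 on the control and 464 on the BHPF liver array, against lowest intensities called well above background of 70.0 and 109.6. The levels were −3.59 and −2.83. The log2 ratio of 0.76, or 1.69-fold, was 4.62 SD between spots, and 4.84% of all named genes had a ratio as high. For dim probes with levels below −2 the spots scattered more, with an SD of a log2 ratio of 0.22 in the liver. *Fgf21* has 1 probe with 1 spot on each array, so no other probe bears on this value.

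The ratios in the liver moved with the scaling between arrays. With the 50th percentile in place of the 75th, the median log2 ratio of all named genes was −0.30 instead of 0.00, the members' median was −0.18, and only *Fgf21*, at 0.45, stayed above 0, while *Pck1*, at −0.34, was lower by over 2 SD. With normexp background correction *Acot1*, at 0.35, was higher by over 2 SD. Among the genes that differed by 2-fold in the liver, 67.5% were higher with the 75th percentile, 31.8% with the 50th and 38.8% when the pair was quantile normalized. Relative to the median of all genes, the members' median was 0.13 with the 75th and 0.11 with the 50th percentile.

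The receptors that act on these genes were measured in the liver by their own probes. *Ppara* had a level of 2.99 on the control and 3.10 on the BHPF array as the mean of 3 probes, and its log2 ratios lay between −0.08 and 0.35 among them. *Pparg*, the receptor best known from adipocytes, had a ratio of −0.06, *Ppard* of −0.36 and *Rxra* of −0.04. Among 15 receptors and cofactors none reached 2-fold, and 12 lay below 0, with a median of −0.07. By over 2 SD, 1 (6.67%) was higher and 4 (26.7%) were lower, against 14.9% and 11.9% of all named genes. Toward the ends of the list were *Lpin2* (0.53), and *Ppargc1a* (−0.59) and *Rxrg* (−0.55). *Ppargc1a* encodes the coactivator PGC-1α, which fasting raises in the liver, and its 2 probes gave −0.26 and −0.91.

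Beyond the 8 genes, 12 lists cover the pathways around them, with 202 genes on the array. In the liver 196 of these were measured. By 2-fold or more, 1 of them was higher (*Irs2*) and 1 lower (*Pdk3*), against 0 and 3 with the 50th percentile, where the median of the pathway genes was −0.29. Higher by over 2 SD were 21 genes (10.7%) and lower 17 (8.67%), both below the shares of all named genes given above, and the median was 0.02.

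In peroxisomal oxidation 4 of 26 genes (15.4%, near the share of all named genes) were higher by over 2 SD and none lower, with a median log2 ratio of 0.09. The highest were *Acot3* (0.97) and *Acot4* (0.67), and the lowest were the carnitine acyltransferase *Crot* (−0.28) and the phytanoyl-CoA hydroxylase *Phyh* (−0.15). *Acot1* to *Acot6* are neighbouring genes with similar sequences, and a probe may bind the RNA of a relative, which was not tested. The probes of a gene also disagreed within this family. The pair of *Acot3* probes gave 0.45 and 1.48. Those of *Acot5*, named after its values were seen, gave −0.29 and 1.07. The mitochondrial *Acot2* had 0.68 and was the highest of the mitochondrial oxidation list, followed by *Eci1* (0.46), while *Ucp2* (−0.31) and the acyl-CoA synthetase *Acsl1* (−0.15) were lowest. Of the 27 mitochondrial genes measured 3 were higher by over 2 SD and none lower, with a median of 0.05.

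Ketone body genes stood on both sides of 0, none of them at 2-fold. The transporter gene *Slc16a6* (−0.76) and *Oxct1* (−0.61), an enzyme of ketone body use that hepatocytes make little of, were lower by over 2 SD. The median of the 7 genes measured was 0.09.

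The *Cyp4a* genes, whose enzymes hydroxylate fatty acids at the omega end, are among the genes that PPARα agonists raise most in mouse liver. Among 11 genes of omega hydroxylation 3 were higher and 2 lower by over 2 SD, none by 2-fold, and the median was 0.06. *Cyp4a14* had levels of 2.97 and 2.49 and a log2 ratio of −0.48, *Cyp4a12a* had −0.61, *Cyp4a10* had 0.47 as the mean of 3 probes between 0.05 and 1.20, and the dim *Cyp4a29* (levels of −4.27 and −3.34) had 0.92. The aldehyde dehydrogenase gene *Aldh3a2* had 0.48. Another 11 targets of PPARα had a median of 0.15, the highest of the pathway lists. Of these, 4 (36.4%) were higher by over 2 SD and none lower, against 14.9% and 11.9% of all named genes. *Txnip*, whose protein restrains glucose uptake, had 0.89 as the mean of probes at 0.76 and 1.02. The glycerol channel gene *Aqp7*, dim with levels of −4.13 and −3.32, had 0.81, while *Retsat* (−0.27) and *Gpd1* (−0.22) were lowest.

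Of 28 genes for the uptake, binding and storage of fatty acids, 1 was higher and 3 were lower by over 2 SD, with a median of 0.03. The fatty acid transporter gene *Cd36* had levels of 1.55 and 0.79 and a log2 ratio of −0.76, and *Vldlr* had −0.46. At the other end were *Fitm1*, for lipid droplet formation, with 0.90, and *Slc27a4* with 0.29. Genes of lipid synthesis in the fed state, 17 in all, had a median of 0.01, and none differed by over 2 SD, from *Srebf1* (−0.24) and *Pnpla3* (−0.20) to *Elovl5* (0.16) and *Dgat2* (0.17).

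In gluconeogenesis and its control, 25 genes were measured, of which 3 were higher and 3 lower by over 2 SD, with a median of −0.07. *Irs2*, an adaptor of the insulin receptor that fasting raises in the liver, was the gene at the 2-fold threshold, with levels of 0.52 and 1.53, just 2-fold apart. It fell short of 2-fold with the 50th percentile (a log2 ratio of 0.69) and with normexp background correction (0.73). *Igfbp1*, a secreted binding protein that insulin represses, had levels of 2.62 and 3.58 and a ratio of 0.96. *Trib3* (−0.39) and *Gpt2* (−0.36) were lowest. Among 13 genes of pyruvate dehydrogenase and its kinases the median was −0.09. *Pdk3*, a kinase related to *Pdk4*, was at least 2-fold lower, with levels of −2.67 and −3.91 and a ratio of −1.24 (−0.89 with normexp), *Dlat* had −0.34, and *Pdk1* (0.20) and *Mpc1* (0.11) were highest. Genes of pantetheine and coenzyme A, 10 measured, had a median of 0.08, with *Pank3* (0.36) and *Pank1* (0.25) highest and *Vnn3* (−0.42) and *Nudt7* (−0.10) lowest. Of the FGF21 receptors and relatives 6 were measured, with a median of −0.06. By over 2 SD, 1 was higher and none lower. It was *Fgf23*, with 0.44 as the mean of probes at −0.09 and 0.97, 1 of them giving a bound. *Klb*, the gene of β-Klotho, had −0.22, *Fgfr3* −0.10, *Fgfr2* −0.02 and *Fgfr1* 0.09.

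**Figure D2:**
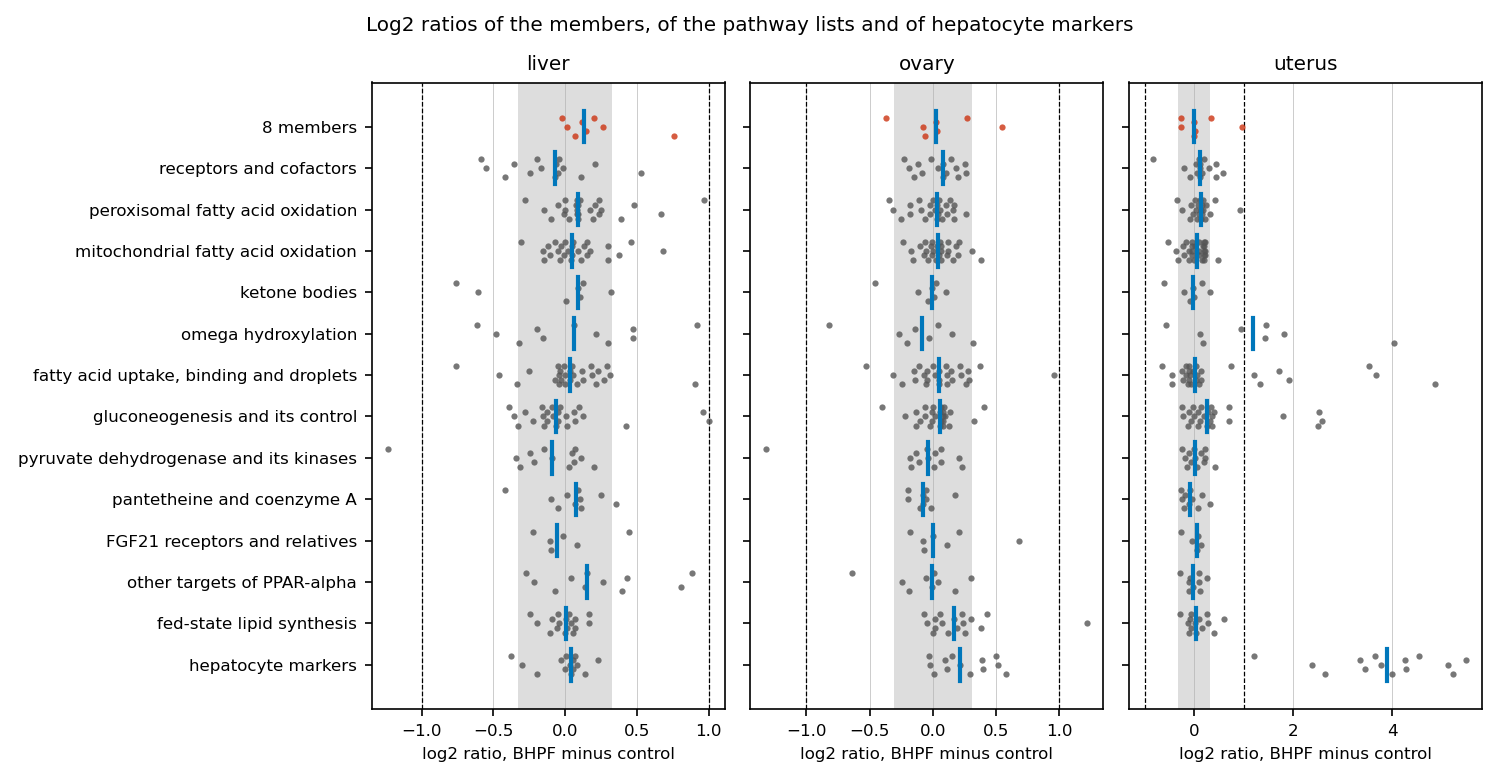
Log2 ratio (BHPF minus control, horizontal axis) of each measured gene among the 8 members, the 12 pathway lists and the hepatocyte markers (vertical axis) in liver, ovary and uterus. Each point is 1 gene, blue bars are list medians, the grey band is 2 SD between spots, dashed lines mark 2-fold, and the horizontal scales differ between tissues. In the uterus all 14 hepatocyte markers and 15 pathway genes lie at 2-fold or above, while each member measured in a tissue lies below 2-fold there.

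Reference genes and cell markers of the liver were read beside these values. *Gapdh* had a log2 ratio of 0.00 over 7 probes and *Actb* of 0.12. The 14 hepatocyte markers had a median of 0.04, none at 2-fold, and a summed linear level, in multiples of the 75th percentile, of 523.9 and 509.4 on the control and BHPF arrays. Of 8 neutrophil markers 6 were lower with BHPF by 2-fold or more, with a median of −2.46 and summed levels of 53.7 and 23.6, *Csf3r* being brightest on both arrays and all 8 well above background on both. Of 7 macrophage markers 2 were lower by 2-fold or more, the median was −0.24, and the list had summed levels of 55.3 and 44.3, led by *Marco* and *Clec4f*. White adipocyte markers had a median of −0.24 over 8 genes, 1 of them higher (*Retn*, 0.42) and 3 lower by over 2 SD, *Cfd* (−1.63) by 2-fold or more, with summed levels of 29.7 and 23.9, *Gpd1* brightest and *Lep* and *Plin1* not well above background. On pooled whole tissue, fewer cells of a type and less RNA per cell cannot be told apart, and the part of these cells in the values of the 8 genes was not tested.

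In the ovary 7 of the 8 genes were measured, since *Fgf21* was not well above background on either array, and none of the 7 differed by 2-fold. Of the 16863 named genes measured, 0.474% reached 2-fold upward and 0.617% downward. *Ehhadh* was higher and *Pdk4* lower by over 2 SD, against 6.59% of all named genes higher and 7% lower by as much. The members' median log2 ratio was 0.03, beside 0.01 for all named genes.

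*Pdk4* was brighter in the ovary than in the other tissues, with an intensity of 14035 on the control and 9250 on the BHPF array. Its levels were 0.90 and 0.53 and its log2 ratio was −0.37, with 5.08% of named genes as low. *Ehhadh* had intensities of 1120 and 1391, levels of −2.74 and −2.20 and a ratio of 0.54, with 1.77% of named genes as high. Dim probes of the ovary had an SD of a log2 ratio of 0.19 between spots. *Acot1*, with levels of 1.88 and 2.15, had a ratio of 0.27, within 2 SD, but 0.46 and beyond it with normexp background correction.

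The other ovary values lay close to 0. The *Cpt1a* probe with 10 spots had levels of 1.55 (SD between spots 0.07, 10 spots) and 1.53 (SD 0.07, 9 spots), and the other *Cpt1a* probe had −2.31 and −2.23. *Vnn1* had levels of 1.53 and 1.45, *Angptl4* of 3.07 and 3.10, and *Pck1* of −2.86 and −2.92. *Fgf21* had intensities of 39.9 and 52.6, below the lowest intensities called well above background on these arrays (93.3 and 119.6).

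Of 191 pathway genes measured in the ovary, 1 was higher and 1 lower by 2-fold or more. *Pdhx*, for a subunit of the pyruvate dehydrogenase complex, had levels of −0.05 and −1.37 and a log2 ratio of −1.32. *Pklr*, for the pyruvate kinase of liver and red cells, was not well above background on the control array and was at least 2.33-fold higher with BHPF. Over 2 SD were 10 higher (5.24%) and 9 lower genes (4.71%), both shares below those of all named genes. The largest list median was that of fed-state lipid synthesis, 0.17 over 17 genes, of which 15 were above 0 and 3 over 2 SD. *Pparg* had levels of 1.92 and 2.18 in the ovary and a ratio of 0.25, and *Ppara* had 0.04, *Ppard* 0.10 and *Rxra* 0.08. *Gapdh* had 0.04 and *Actb* 0.42.

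Markers of other cells also differed between the ovary arrays. Hepatocyte markers had a median log2 ratio of 0.21 over 13 genes, 5 of them higher by over 2 SD, with summed levels of 12.1 and 13.7, *Trf* brightest and *Tdo2* not well above background on either array. The linear excess of *Ehhadh* on the BHPF ovary array was 0.82% of its control liver level, and that of the 18 hepatocyte marker probes lay between −0.31% and 0.91% with a median of 0.15%. White adipocyte markers had a median of 0.34 over 9 genes, with *Adipoq* (1.35) and *Cfd* (2.05) at least 2-fold higher, summed levels of 4.23 and 5.10, *Fabp4* brightest and *Lep* not well above background. Neutrophil markers had a median of −1.48, with 4 of 8 at least 2-fold lower and summed levels of 13.8 and 11.4, *Csf3r* brightest and *Ngp* not well above background with BHPF. Macrophage markers had a median of −0.20, with *Adgre1* (−1.20) and *Marco* (−2.71) at least 2-fold lower, summed levels of 7.99 and 4.60 and *C1qa* brightest. The part of these cells in the values of *Pdk4* and *Ehhadh* was not tested.

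In the uterus *Pck1* came closest to 2-fold among the 7 members measured, and none of the 7 reached it. Among 16161 named genes, 2.27% reached it upward and 0.823% downward. *Pck1* and *Pdk4* were higher by over 2 SD, as were 10.3% of all named genes, and no member was lower by over 2 SD, against 8.72% of all named genes. The median of the 7 measured members was −0.01, beside 0.00 for all named genes.

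*Pck1* had an intensity of 3136 on the control uterus array and 5233 on the BHPF uterus array, levels of −0.77 and 0.21 and a log2 ratio of 0.97, and 2.34% of named genes had a ratio as high. *Pdk4* had levels of −0.57 and −0.23 and a ratio of 0.34. For *Cpt1a* the probes leaned the same way. The probe with 10 spots had levels of 1.51 (SD between spots 0.12, 10 spots) and 1.14 (SD 0.08, 10 spots), a ratio of −0.37 with a standard error of 0.04 from the spots. The other had −2.81 and −2.98, a ratio of −0.17, and the mean of the pair, −0.27, lay within 2 SD of a single spot. *Angptl4* had levels of 2.50 and 2.24 and a ratio of −0.26. Some settings put these genes lower by over 2 SD, *Angptl4* with normexp (−0.40) and the 50th percentile (−0.33), and *Cpt1a* with the 50th percentile (−0.34) and with its brightest probe alone (−0.37).

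The remaining members hardly differed between the uterus arrays. *Ehhadh* had levels of −2.02 and −2.03, *Acot1* of 2.51 and 2.52, and *Vnn1* of 0.43 and 0.41. *Fgf21* had intensities of 24.7 and 68.4 and was not well above background on either array, where the lowest such intensities were 95.6 and 135, so no ratio is given.

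Some other genes of these pathways were far higher on the BHPF uterus array. Those at 2-fold were also far higher in the control liver than in the control uterus. Of 184 pathway genes measured, 15 were higher by 2-fold or more and none lower, where 2.27% and 0.823% of all named genes were. By over 2 SD, 33 (17.9%) were higher and 9 (4.89%) lower, against 10.3% and 8.72% of all named genes. They include *Fabp1*, the fatty acid binding protein of liver and intestine, with levels of −3.22 and 1.64 and a log2 ratio of 4.86, *Fabp2* (1.71), *Angptl8* (1.33), *Slc27a5* (3.54), *Fbp1* (2.58) and *Tat* (1.80). Another 8 were not well above background on the control array, and their folds are bounds. These were at least 16.3-fold for *Cyp4f14*, 5.72-fold for *Sds*, 5.68-fold for *Igfbp1*, 3.79-fold for *Lipc*, 3.51-fold for *Cyp4a31*, 2.73-fold for *Cyp4a10*, 2.68-fold for *Cyp4f15* and 2.31-fold for *Apoa5*. With normexp background correction 14 pathway genes were higher by 2-fold or more. The log2 ratio of *Cyp4f14* was then 2.95 instead of 4.03, and that of *Cyp4f15*, at 0.90 instead of 1.42, fell short of 2-fold. Omega hydroxylation held 4 of the 15 genes, uptake, binding and droplets 7, and gluconeogenesis and its control 4. The list medians were 1.19, 0.01 and 0.27, and none of the other 9 lists held a gene at 2-fold.

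Hepatocyte markers were high on the same array. All 14 were at least 2-fold higher on the BHPF uterus array, with a median log2 ratio of 3.89 and summed levels of 6.58 on the control and 53.0 on the BHPF array. *Trf* was brightest on the control array and *Alb* on the BHPF array, and *Cps1* and *Tdo2* were not well above background on the control array only. The linear excess of the BHPF over the control uterus array was, for the 18 probes of these markers, between 0.71% and 15.6% of the control liver level, with a median of 7.39%. For the 20 probes of the 15 pathway genes at 2-fold, some of them dim, it was between 0.18% and 8.06%, with a median of 0.70%. For *Pck1* it was 2.16%. For *Ehhadh*, whose level in the control liver exceeded that in the control uterus 33.7-fold, it was −0.02%, and for the *Cpt1a* probe with 10 spots it was −5.78%. The control liver level of the 20 pathway probes exceeded their control uterus level by 6.06 to 10.7 in log2. The share differed widely among genes that are bright in the liver. The part of liver RNA in the values of *Pck1* and of the 15 pathway genes was not tested.

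*Pck1* and *Angptl4* are also expressed in fat, and markers of white adipocytes differed between the uterus arrays. Their part in the values of these genes was not tested. Of 8 measured none was higher and 3 were at least 2-fold lower on the BHPF uterus array, *Adipoq* (−3.31), *Cfd* (−2.71) and *Fabp4* (−1.46), with a median of −0.59. Their summed levels were 6.55 and 3.36, with *Fabp4* brightest on the control and *Gpd1* on the BHPF array, and *Lep* and *Plin1* not well above background on either. Neutrophil markers had a median of −0.71, with 3 of 8 at least 2-fold lower and summed levels of 30.8 and 28.5, led by *Csf3r*. Among 7 macrophage markers *Clec4f* (1.21) and *Vsig4* (1.04) were at least 2-fold higher and *Marco* (−0.38) was lower by over 2 SD. The median was 0.08 and the summed levels were 9.46 and 9.15, led by *C1qa*. *Clec4f* and *Vsig4* were far brighter in the control liver (3.51 and 2.80) than in the control uterus (−3.78 and −5.29). The part of liver RNA in their values was not tested. The median over the 8 uterus markers was 0.02. *Ppara* had a ratio of 0.45 in the uterus as the mean of 3 probes, *Pparg* of −0.21, *Ppard* of 0.11 and *Rxra* of 0.11, the last with 1 of 2 probes dim on the control array. *Gapdh* had −0.05 and *Actb* 0.10.

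Markers of tissues that could have come with the organs gave few values. Brown adipocyte markers had medians of 0.12 over 3 genes in the liver, −0.20 over 4 in the ovary and −0.05 over 5 in the uterus, and *Ucp1* was not well above background on any array. Skeletal muscle markers had medians of 0.04 over 3, −0.07 over 3 and 0.00 over 5 genes, and pancreas markers of 0.00 over 3, −0.20 over 5 and −0.56 over 2 genes, in the same order of tissues. *Cela1* was at least 2-fold lower in the uterus (−1.46). Ovary markers had a median of −0.21 over 5 genes in the liver, 0.04 over 9 in the ovary and 0.04 over 6 in the uterus, and uterus markers had 0.64 over 5 genes in the liver and 0.08 over 7 in the ovary. In the liver *Zp3* of the ovary markers and *Emx2* of the uterus markers were not well above background on the control array. They were at least 3.15-fold and 2.37-fold higher with BHPF, but dim. Their levels there were −3.97 and −4.33, where the lowest level well above background was −4.91. Of the ovary markers measured in the liver 2 lay above 0 and 3 below, and of the uterus markers 3 and 1.

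Most of the 8 genes differed more between tissues than between treatments. On the control arrays 5 of them, *Cpt1a*, *Ehhadh*, *Fgf21*, *Angptl4* and *Pck1*, had their highest level in the liver. *Pck1* was 44.7-fold higher in the liver than in the uterus and 4.27-fold higher in the uterus than in the ovary. If the headings of the authors' table are right, its control uterus level is 0.21 in place of −0.77, which narrows the first gap and widens the second. *Ehhadh* was 33.7-fold higher in the liver than in the uterus and 1.65-fold higher there than in the ovary, a gap that with BHPF was within 2 SD between spots. *Fgf21* was at least 6.70-fold higher in the control liver than the lowest level well above background on the control ovary array, and at least 4.65-fold in the same comparison with the uterus. With BHPF these bounds were 7.54-fold and 4.73-fold.

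*Cpt1a* was 4.15-fold higher in the control liver than in the ovary as the mean of its probes, and ovary and uterus differed by less than 2 SD on the control arrays. With BHPF the ovary level (−0.35) lay over 2 SD above that of the uterus (−0.92). With the 50th percentile the control levels of ovary (2.85) and uterus (2.47) also lay over 2 SD apart. *Angptl4* declined from liver to ovary by 1.69-fold and from ovary to uterus by 1.49-fold, and the same order held with BHPF. The other 3 genes were not highest in the liver. *Pdk4* was 2.78-fold higher in the control ovary than in the uterus and lowest in the liver, but with the 50th percentile its control level was lower in the uterus (2.55) than in the liver (2.64). *Vnn1* was 1.98-fold higher in the ovary than in the liver, and liver and uterus did not differ beyond 2 SD on either pair of arrays. That last comparison depends on the scaling, since with the 50th percentile the control levels were 4.24 in the liver and 3.55 in the uterus, and with a 75th percentile taken only from probes measured on every array they were −1.12 and −0.88. *Acot1* was 1.45-fold higher in the control uterus than in the liver, and liver and ovary did not differ beyond 2 SD. With BHPF no neighbours in the order of *Acot1* did. These gaps depend on the scaling too. With the 50th percentile the level of *Acot1* in the control liver (5.67) passed that in the uterus (5.63) and lay over 2 SD above that in the ovary (5.11), and with the percentile of probes measured on every array the ovary (0.59) passed the liver (0.30).

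The likeness of other genes was measured over the 6 arrays as the root mean square difference of levels after the mean of each gene was removed, among 12320 genes well above background on every array. Nearest to *Pck1* were *Hsd11b1* (0.19), *Rdh9* (0.26) and *Qprt* (0.34). *Hsd11b1*, which encodes the enzyme that regenerates active glucocorticoid, had levels of 4.35 (control) and 4.44 (BHPF) in the liver, −3.41 and −3.46 in the ovary, and −0.75 and −0.10 in the uterus. Near to *Ehhadh* were *Ang4* (0.23) and *Glyctk* (0.24). The members with a flatter profile had closer neighbours. These were *Oxsm* (0.08), *Pgm1* (0.08) and *Qsox1* (0.09) for *Cpt1a*, *Psmf1* (0.06), *Pkp2* (0.06) and *Fam136a* (0.06) for *Angptl4*, and *Hivep3* (0.06), *Taf7l* (0.06) and *Gas1* (0.07) for *Acot1*. For *Vnn1* they were *Syce2* (0.05), *Ptpn2* (0.05) and *Mgat4b* (0.07), and for *Pdk4* *Mutyh* (0.11), *Txk* (0.12) and *Tnks* (0.13). *Fgf21* was not compared, since it was not measured in the ovary and the uterus.

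Promoters came from RefSeq (mouse assembly GRCm38.p6), in a table that gives 250 bases before and 50 after each start of transcription and holds 6 of the 8 genes. *Vnn1* and *Angptl4* were not matched. Motifs were searched on both strands. The direct repeat that PPARα and RXRα bind, 2 copies of AGGTCA with 1 base between them, is in 0.0396% of the 32851 promoters of the table, and the same repeat with any base at the fourth letter of each copy is in 0.381%. Neither is in these windows of the 6 genes, which says only that these letters are not there. The single copy AGGTCA, a part of the direct repeat, is in 16.3% of all promoters and in that of *Cpt1a*, between 94 and 89 bases before the start. The cyclic AMP element TGACGTCA, in 1.79% of promoters, was not found in the 6. Its shorter form TGACG, contained in it and present in 20.8% of promoters, was found in 3 of the 6, between 90 and 86 bases before the start in *Pck1*, between 68 and 64 in *Fgf21* and between 179 and 175 in *Ehhadh*. The forkhead motif GTAAACA, in 3.65% of promoters, was not found in them. The 200 bases before the start are shown for the 4 genes with a match, among them the gene with the brightest probe in the liver (*Pck1*) and the 1 with the highest ratio there (*Fgf21*). They are written 5′ to 3′ on the strand of the gene, with each match in capitals, for *Cpt1a* at chr19:3323101-3323300 on the plus strand, *Ehhadh* at chr16:21787835-21788034 on the minus strand, *Fgf21* at chr7:45615491-45615690 on the minus strand and *Pck1* at chr2:173152873-173153072 on the plus strand. A match is a description of the letters and not a binding site.
Cpt1a: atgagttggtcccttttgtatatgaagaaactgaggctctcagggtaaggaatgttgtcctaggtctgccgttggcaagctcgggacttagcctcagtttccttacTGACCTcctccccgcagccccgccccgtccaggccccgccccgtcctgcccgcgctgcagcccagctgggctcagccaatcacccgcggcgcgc
Ehhadh: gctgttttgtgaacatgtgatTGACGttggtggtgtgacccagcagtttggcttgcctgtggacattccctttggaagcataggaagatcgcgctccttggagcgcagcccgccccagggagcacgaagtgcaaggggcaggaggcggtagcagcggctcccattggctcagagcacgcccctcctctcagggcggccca
Fgf21: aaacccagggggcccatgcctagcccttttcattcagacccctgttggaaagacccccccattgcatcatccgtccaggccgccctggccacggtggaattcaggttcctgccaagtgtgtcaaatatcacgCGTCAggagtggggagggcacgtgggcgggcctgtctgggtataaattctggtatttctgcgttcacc
Pck1: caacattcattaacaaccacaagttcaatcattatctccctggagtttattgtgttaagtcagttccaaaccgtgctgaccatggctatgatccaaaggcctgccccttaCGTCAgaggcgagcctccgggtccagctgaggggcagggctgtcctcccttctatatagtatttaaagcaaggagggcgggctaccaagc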

How the data were processed

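The authors pooled RNA of 3 animals per group, labelled it with Cy3, hybridized it to 6 arrays on 1 slide and extracted the scan with Agilent Feature Extraction. The deposited scanner files give an intensity per spot on a linear scale, background-subtracted and not normalized between arrays, with its median signal, the local background and quality calls. A table of log2 values deposited by the authors equals the log2 intensity less a constant for each array, close to the 75th percentile. Its column medians were −1.25, −1.66, −1.22, −1.17, −1.64 and −1.23, and it was used as an alternative. The direction of its uterus columns is uncertain, as the report describes.

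Control spots and outlier spots were left out, log2 intensities were averaged over the spots of each probe, and the 75th percentile over 55681 probes was subtracted, in Python 3.11.15 with pandas 2.3.3 and numpy 2.4.6. A probe well above background on 1 array of a tissue only was set against the lowest level well above background on the other, or its own level where higher, which gives a bound. Probes of a gene were averaged. Symbols came from matching the accession of a probe to a RefSeq table of GRCm38.p6, for 26762 probes, while the array design names another build. Alternatives used limma 3.58.1 in R 4.3.3 (normexp, offset 50), other scalings, filters, probes and thresholds. The ratio calculation was tested on simulated data. The text names all members, from each pathway list up to 2 of the highest and 2 of the lowest log2 ratios of genes that both liver arrays measured above background, genes at 2-fold, and the main receptors. *Coasy*, *Gyk* and *Cd68* of the lists were not matched. The members and lists were chosen with earlier results of these data known.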

Additional observations from a re-analysis of the deposited data

Results flagged for a closer look

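*Pdk4* differed in opposite directions in the ovary and the uterus, in each by over 2 SD between spots. Its log2 ratio was −0.37 in the ovary, with levels of 0.90 on the control and 0.53 on the BHPF array, and 0.34 in the uterus, with levels of −0.57 and −0.23. The ratios lay 0.71 apart. In the uterus the ratio was within 2 SD with normexp background correction (0.27) and with the 50th percentile (0.27). With 1 array per group this difference between tissues was not tested. The sign in the uterus is the opposite if the column headings of the authors' table are right, and the difference between the tissues is then not one of direction.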

How the results depend on the processing

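The counts of members at 2-fold in liver, ovary and uterus were 0 in each direction with normexp background correction, each other scaling, the authors' table, each filter on dim or outlier spots and the brightest probe. With 1.5-fold as the threshold, 1 member was higher in the liver (*Fgf21*) and 1 in the uterus (*Pck1*). The median of the liver members was −0.18 with the 50th percentile, which moved the median of all named genes by −0.30. Otherwise no median of the members moved by as much as the SD between spots of a log2 ratio. *Fgf21* in the liver ranged from 0.45 to 0.76, *Pck1* in the uterus from 0.90 to 0.98, *Ehhadh* in the ovary from 0.52 to 0.57, and *Pdk4* from −0.62 to −0.37 in the ovary and from 0.27 to 0.35 in the uterus, over the settings other than the table as headed.

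With the table as headed, *Pck1* in the uterus had −0.97, and the 15 pathway genes took the opposite sign, among them *Fabp1* −4.86, *Igfbp1* −4.35, *Cyp4f14* −4.25, *Slc27a5* −3.53, *Cyp4a31* −2.72, *Fbp1* −2.58, *Sds* −2.51, *Apoa5* −2.16, *Cyp4a10* −2.05, *Lipc* −1.93, *Tat* −1.80, *Fabp2* −1.71, *Cyp4f15* −1.56 and *Angptl8* −1.32. This follows from the exchanged columns and, for dim probes, from values without a bound. Of the 15 genes, 7 were counted when a probe had to be well above background on both arrays.

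No paired analysis was possible within a tissue because each group has 1 array, and none was run across the tissues. Quantile normalization within a tissue and the brightest probe give no levels across tissues, so that result has no value there. Signal over background limits *Fgf21* most, which was measured in the liver only. Neither the scaling nor the spots give the variation between pools, and slide position cannot be told apart from treatment.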
